A study of Mus musculus with 20 samples.

Results

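The 34 genes described here encode enzymes and regulators of sterol and fatty acid synthesis. They were chosen by name: 7 genes of the acetyl and mevalonate steps, 3 of the squalene and lanosterol steps, 8 of the steps between lanosterol and cholesterol, 5 that control the transcription factors SREBP-1 and SREBP-2 or encode them, 2 of sterol transport and receptor turnover, and 9 of fatty acid synthesis, desaturation and elongation. They are 34 of the 34083 genes to which the transcripts of the files were matched, and all 34 passed the filter on low counts in every comparison. The study asked whether pulsed near-infrared laser light, at settings used for stimulated Raman scattering (SRS) microscopy, changed gene expression. Neuro2A (N2A) cells, a mouse neuroblastoma line, grew in wells of 384-well plates, and polyadenylated RNA from 20 samples was sequenced.

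Batch 1 held 5 groups of 3 libraries. I0-E0 wells were scanned once at the lowest intensity with a dwell time of 2 µs per pixel. I0-E2 and I0-E4 wells received the same intensity with dwell times of 10 and 20 µs per pixel, which gave 5 and 10 times the fluency (light energy per area) of I0-E0. I2-E2 wells received 5 times the intensity at 2 µs per pixel, and so the same fluency as I0-E2. NC wells, the negative control, were handled alike but not exposed. Batch 2 held 3 libraries of I3-E3-SRS wells, scanned once at 2 µs per pixel with 2 lasers tuned to a Raman resonance, at a higher intensity and through a stronger objective, and 2 libraries of its own NC wells. Exposed cells were lysed 1 h after exposure. The labels do not say whether replicates were separate cultures, so p-values measure only the spread between these libraries, which may be technical.

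Cells build cholesterol from acetyl-CoA through mevalonate, squalene and lanosterol, and fatty acids from acetyl-CoA through malonyl-CoA. Both routes are switched on by the SREBP transcription factors: when membrane sterol is low, the escort protein SCAP carries an SREBP precursor from the endoplasmic reticulum to the Golgi, where it is cleaved, and when sterol is high the INSIG proteins hold SCAP back. Many genes of the pathway, INSIG1 among them, are direct SREBP targets. Their transcripts therefore usually change together, rising when the sterol of the cell is low and falling when it is high.

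The libraries held 5473588 to 12698770 estimated counts. The members took 0.375 to 0.467% of the counts in the 15 libraries of batch 1 and 0.679 to 0.798% in the 5 of batch 2. Of the sympathetic neuroblast genes, Phox2a, Hand2, Gata2, Chga and Chgb had counts in all 20 libraries, while Nefl and Nefm stayed at or near 0. Summed levels of fibroblast, macrophage, epithelial and glial marker lists were at most 9.21 TPM (a level per transcript length, scaled to the same total in each library) in any library. In 2 libraries, values stood apart. I0-E0 replicate 3 had counts in 19940 genes, against 15979 to 17173 in the other batch 1 libraries. NC replicate 1 of batch 2 had 33.0% of its TPM in transcripts under 300 bases, against 1.62 to 2.30% elsewhere, and its TPM of members differed from those of NC replicate 2 in both directions, as for Dhcr7, at 256 TPM in replicate 1 and 88.3 TPM in replicate 2. What caused this was not tested. Results of batch 2 are therefore given as CPM, counts scaled by library size. In these bulk samples, a change in the mix of cells and a change of RNA per cell cannot be told apart.

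Fatty acid genes led the levels in unexposed batch 1 wells. Acly, the ATP citrate lyase that makes cytosolic acetyl-CoA, was the highest member at 300 ± 12.6 TPM (SD, n = 3). Scd2, a stearoyl-CoA desaturase of brain and other tissues, followed at 197 ± 15.6 TPM and Fasn, the fatty acid synthase, at 194 ± 7.76 TPM. These last 2 did not differ beyond their spread. The other desaturase gene, Scd1, best known from liver and fat, was the lowest member at 1.45 ± 0.362 TPM. The highest member of the mevalonate steps was Fdps, farnesyl diphosphate synthase, at 103 ± 5.91 TPM. Sqle, the squalene epoxidase, led its class at 64.9 ± 1.74 TPM, and Dhcr7, which makes cholesterol in the last step of one branch, led the lanosterol to cholesterol steps at 45.5 ± 6.38 TPM. Stard4, a cytosolic sterol carrier, stood at 22.9 ± 1.87 TPM and Mylip, a ubiquitin ligase of lipoprotein receptor turnover, at 5.29 ± 0.409 TPM.

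The regulators covered a narrower range. Srebf1, the gene of SREBP-1, averaged 98.5 ± 8.58 TPM, and Srebf2, the gene of SREBP-2, 69.5 ± 7.09 TPM. Scap averaged 60.3 ± 7.55 TPM, Insig1 49.0 ± 0.769 TPM and Insig2 17.9 ± 3.67 TPM. Srebf2 and Scap did not differ beyond their spread. The Srebf1 total was the sum of 12 transcripts, of which 9 are annotated as non-coding processed transcripts.

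**Figure D1:**
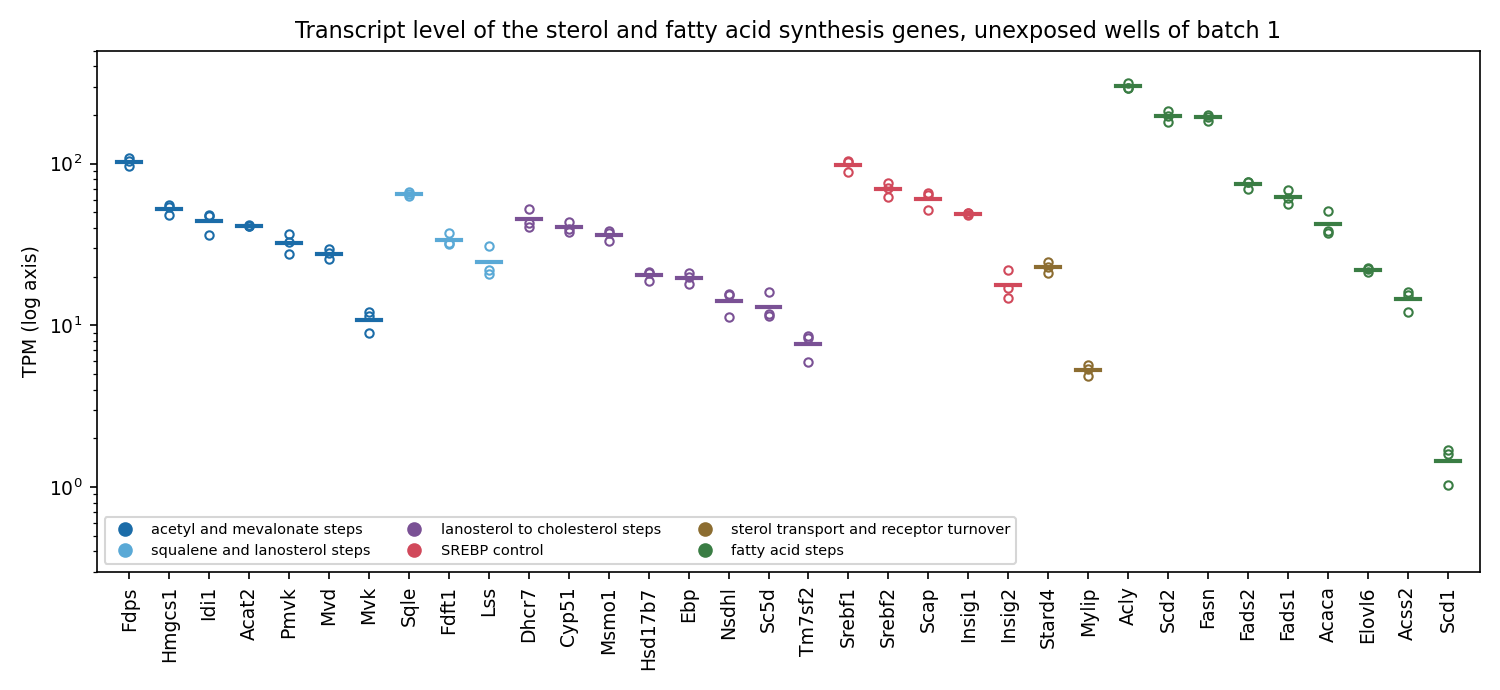
TPM of the 34 members in the 3 unexposed libraries of batch 1, on a log axis, with members ordered by class and level. Open points are libraries and bars are means. Acly, Scd2 and Fasn stood at 300, 197 and 194 TPM, and Scd1 at 1.45 TPM.

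Some members share sequence with other genes, whose counts could be divided between them. The share of 31-base words found in no other gene was 56.3% for Acat2, the cytosolic acetoacetyl-CoA thiolase, whose other words were shared with Acat3 more than with any other gene, 66.5% for Acaca, 68.1% for Fdft1, 72.1% for Fdps and 72.9% for Idi1. It was 86.7 to 93.5% for Tm7sf2, Hmgcs1, Scap, Scd1, Acss2, Scd2 and Elovl6. Values of these 12 genes are therefore less certain, by an amount that was not measured.

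Promoter sequence was matched for 27 of the 34 members in the RefSeq table (GRCm38.p6), all but Fdps, Fdft1, Sqle, Stard4, Scd1, Scd2 and Fads1. In the 250 bases before each start site, 4 motifs were searched on both strands: TCACNCCAC, a form of the sterol regulatory element bound by SREBP, CCAAT, bound by NF-Y, GGGCGG, bound by Sp1, and CACGTG, the E-box. CCAAT was in at least 1 window of 21 of 27 members, against 37.5% of all 27025 genes, and GGGCGG in 23 of 27, against 35.4%. CACGTG was in 5 of 27, against 6.86%, and TCACNCCAC in 1, Hmgcs1, against 1.23%. The windows of 5 members are shown because of how their genes stood in the comparison of the batches below: Hmgcs1 (chr13:119690101-119690350, plus strand), Msmo1 (chr8:64733579-64733828, minus strand) and Insig1 (chr5:28071162-28071411, plus strand) were higher in batch 2, Ebp (chrX:8193513-8193762, minus strand) did not pass the test, and Mylip (chr13:45389492-45389741, plus strand) was lower. Capitals mark the motifs. Motif matches are a description and not evidence of binding.
Hmgcs1: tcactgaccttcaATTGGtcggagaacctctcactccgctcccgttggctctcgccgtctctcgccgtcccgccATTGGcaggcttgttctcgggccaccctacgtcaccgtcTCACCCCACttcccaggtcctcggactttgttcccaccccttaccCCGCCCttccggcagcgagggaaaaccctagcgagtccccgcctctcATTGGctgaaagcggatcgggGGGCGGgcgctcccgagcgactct
Msmo1: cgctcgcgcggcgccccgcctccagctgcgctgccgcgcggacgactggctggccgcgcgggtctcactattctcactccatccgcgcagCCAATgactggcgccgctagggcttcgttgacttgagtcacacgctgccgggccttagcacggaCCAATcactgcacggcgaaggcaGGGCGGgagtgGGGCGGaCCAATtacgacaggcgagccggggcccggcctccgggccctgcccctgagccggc
Insig1: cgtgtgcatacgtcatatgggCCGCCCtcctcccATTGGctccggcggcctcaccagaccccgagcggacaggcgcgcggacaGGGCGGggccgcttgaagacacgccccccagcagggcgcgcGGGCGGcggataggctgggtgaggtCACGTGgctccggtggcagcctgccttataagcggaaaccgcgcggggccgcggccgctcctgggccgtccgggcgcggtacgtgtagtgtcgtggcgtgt
Ebp: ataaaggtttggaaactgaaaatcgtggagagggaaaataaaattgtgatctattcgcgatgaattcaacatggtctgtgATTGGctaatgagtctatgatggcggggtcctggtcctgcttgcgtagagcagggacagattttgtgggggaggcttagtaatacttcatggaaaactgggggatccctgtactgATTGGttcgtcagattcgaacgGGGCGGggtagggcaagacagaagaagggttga
Mylip: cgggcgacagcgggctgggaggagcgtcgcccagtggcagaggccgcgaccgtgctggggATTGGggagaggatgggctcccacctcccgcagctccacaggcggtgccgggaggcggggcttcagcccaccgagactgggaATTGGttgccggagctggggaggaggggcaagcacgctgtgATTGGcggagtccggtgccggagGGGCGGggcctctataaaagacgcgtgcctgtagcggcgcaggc
The Hmgcs1 window carries TCACCCCAC 137 bases before the start, with 3 CCAAT and 2 GGGCGG motifs. Msmo1 has 3 CCAAT and 2 GGGCGG, Insig1 has 1 CCAAT, 3 GGGCGG and 1 CACGTG. Ebp has 2 CCAAT and 1 GGGCGG and Mylip 3 CCAAT and 1 GGGCGG, so windows of both the genes that were higher and those that were not hold CCAAT and GGGCGG.

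None of the members passed an adjusted p of 0.05 (edgeR quasi-likelihood test, Benjamini-Hochberg over all genes) in any comparison of exposed with unexposed wells or between exposures. The background was the same in all 8 comparisons, with 0% of genes called. In I3-E3-SRS wells that background rested on single libraries, since 671 genes of the whole table were called without NC replicate 2 of batch 2, and 19 in a fit of both batches, with no member among them. In the fluency trend 35 genes were called without I0-E4 replicate 3, and no member. DESeq2, limma-voom and limma-trend likewise called no member in any comparison. DESeq2 called 0 to 15 genes of the whole table per comparison. The members described below are those with the smallest unadjusted p, and none of them passed the adjusted threshold. The 4 comparisons with NC in batch 1 share the same 3 NC libraries.

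In I0-E0 wells, the lowest exposure, 23 of 34 members were below NC, against 48.6% of all genes, with a median log2 fold change of -0.03, against 0.00 over all genes. At an unadjusted p under 0.05 there was 1 member, against 3.36% of genes (413 genes). There were 3 members without I0-E0 replicate 3 (324 genes of the whole table). There were 2 without I0-E0 replicate 1 (388 genes) and 2 without NC replicate 3 (389 genes). Nsdhl, a sterol demethylation enzyme, had 13.4, 12.4 and 14.7 CPM in I0-E0 wells and 19.8, 19.7 and 14.7 CPM in NC wells. The I0-E0 values were low but reached that of 1 NC well. Its log2 fold change was -0.43 (SE 0.13, 95% interval -0.69 to -0.16, edgeR, adjusted p = 1.00). Ebp, the sterol isomerase of the late steps, had 23.4, 22.6 and 19.4 CPM in I0-E0 wells and 17.5, 18.4 and 18.1 CPM in NC wells, and the groups did not overlap (log2 fold change 0.28, SE 0.14, 95% interval -0.02 to 0.57, edgeR, adjusted p = 1.00). Scd2 followed (log2 fold change -0.13, SE 0.07, 95% interval -0.27 to 0.01, edgeR, adjusted p = 1.00). Without I0-E0 replicate 3, the library with counts in the most genes, the log2 fold changes were -0.50 for Nsdhl, 0.35 for Ebp and -0.19 for Scd2, and none passed. All libraries of a member lay below all NC libraries for 2 members, Fdft1, the squalene synthase, and Elovl6, an elongase of long-chain fatty acids, against 4.36% of genes, and above them for Ebp alone, against 4.68%.

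I0-E2 wells received 5 times that fluency. There, 26 members were below NC, against 49.8% of genes, and the median log2 fold change was -0.08. At an unadjusted p under 0.05 there were 3 members, against 3.36% of genes (413 genes). There were 7 members without I0-E2 replicate 2 (291 genes of the whole table) and 1 without I0-E2 replicate 3 (259 genes). Scd2 had 560.4, 623.2 and 552.2 CPM in I0-E2 wells and 727.2, 682.5 and 634.1 CPM in NC wells. All 3 exposed wells were below the lowest NC well (log2 fold change -0.24, SE 0.07, 95% interval -0.38 to -0.10, edgeR, adjusted p = 0.993). Insig1 had 55.2, 75.8 and 55.9 CPM in I0-E2 wells and 77.0, 72.7 and 74.9 CPM in NC wells. Of the exposed wells, 1, at 75.8 CPM, lay within the NC range (log2 fold change -0.27, SE 0.10, 95% interval -0.47 to -0.06, edgeR, adjusted p = 0.993). Ebp had 21.3, 22.1 and 23.9 CPM in I0-E2 wells, again without overlap with NC (log2 fold change 0.32, SE 0.14, 95% interval 0.03 to 0.62, edgeR, adjusted p = 0.993). All libraries lay below all NC libraries for Scd2, Mylip, Fdps and Acat2, 4 members against 5.41% of genes, and above for Ebp, against 5.8%.

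I0-E4 wells received the highest fluency of the series. There, 26 members were below NC, against 49.3% of genes, with a median log2 fold change of -0.04, and 3 members had an unadjusted p under 0.05, against 7.91% of genes. Of the whole table, 973 genes had such a p. The count of members was 0 without NC replicate 1 (718 genes of the whole table) and with the length trend removed (705 genes). It was 5 without NC replicate 3 (956 genes) and 5 without I0-E4 replicate 3 (2059 genes). Scd2 had 600.2, 572.1 and 606.9 CPM in I0-E4 wells, all below the 634.1 CPM of the lowest NC well (log2 fold change -0.20, SE 0.07, 95% interval -0.34 to -0.06, edgeR, adjusted p = 0.612). Elovl6 had 66.8, 66.5 and 67.5 CPM in I0-E4 wells and 76.6, 74.6 and 74.0 CPM in NC wells. The I0-E4 wells lay within 1 CPM of each other and below every NC well (log2 fold change -0.17, SE 0.06, 95% interval -0.30 to -0.03, edgeR, adjusted p = 0.612). Srebf2 had 186.6, 195.4 and 202.9 CPM in I0-E4 wells and 237.0, 221.5 and 197.3 CPM in NC wells, with overlap (log2 fold change -0.17, SE 0.08, 95% interval -0.33 to -0.00048, edgeR, adjusted p = 0.62). Scd2 and Elovl6 were the 2 members below all NC libraries, against 6.04% of genes. All 9 fatty acid genes had a negative log2 fold change, with a median of -0.13, but Acly, Fasn and Acaca, the acetyl-CoA carboxylase, were within 0.03 of 0.

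Over the unexposed wells and the 3 groups of rising fluency, a linear term on fluency gave a negative slope for 25 members, against 50.7% of genes, and 3 members had an unadjusted p under 0.05, against 9.69% of genes. Of the whole table, 1181 genes had such a p. The count of members was 0 without NC replicate 1 (895 genes) and with the length trend removed (755 genes). It was 1 without I0-E4 replicate 1 (674 genes). It was 4 without NC replicate 3 (1175 genes) and 4 without I0-E4 replicate 3 (2295 genes). Mean Scd2 levels were 681, 624, 579 and 593 CPM from NC to the highest fluency, so the lowest mean was not at the highest fluency. The slope of Scd2 was -0.02 log2 units per unit of I0-E0 fluency (edgeR, adjusted p = 0.453) and that of Elovl6 -0.01 (edgeR, adjusted p = 0.466). Mvk, the mevalonate kinase, had a positive slope of 0.03 (edgeR, adjusted p = 0.512).

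I2-E2 wells received 5 times the intensity. There, 29 of 34 members were below NC, against 48.8% of genes, with a median log2 fold change of -0.08, against 0.00 over all genes. At an unadjusted p under 0.05 there were 6 members, against 7.19% of genes (884 genes). There were 4 members without NC replicate 1 (618 genes of the whole table) and 4 with the length trend removed (809 genes). There were 9 without I2-E2 replicate 3 (1755 genes). Mylip had 5.3, 5.1 and 6.6 CPM in I2-E2 wells and 9.0, 9.1 and 10.8 CPM in NC wells. The groups were apart by more than their own ranges, at a level near the low end of the members (log2 fold change -0.74, SE 0.16, 95% interval -1.08 to -0.41, edgeR, adjusted p = 0.601). Scd2 had 581.6, 563.2 and 594.9 CPM in I2-E2 wells, again below every NC well (log2 fold change -0.23, SE 0.07, 95% interval -0.37 to -0.09, edgeR, adjusted p = 0.601). Nsdhl had 13.0, 14.9 and 14.1 CPM in I2-E2 wells and overlapped NC at its lowest well (log2 fold change -0.38, SE 0.13, 95% interval -0.65 to -0.11, edgeR, adjusted p = 0.607). Dhcr7 had 51.0, 46.7 and 47.4 CPM in I2-E2 wells and 56.0, 58.2 and 53.4 CPM in NC wells, without overlap (log2 fold change -0.21, SE 0.07, 95% interval -0.36 to -0.05, edgeR, adjusted p = 0.607). Below all NC libraries stood 5 members, Scd2, Mylip, Dhcr7, Elovl6 and Sqle, against 5.84% of genes. Without the filter on low counts, Scd2 (adjusted p = 0.0344) and Mylip (adjusted p = 0.0497) passed in this comparison, where 160 genes of the whole table were called.

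Scd2 and Elovl6 were the members whose exposed libraries lay below every NC library in 3 of the 4 batch 1 comparisons. As these share 3 NC libraries, the comparisons are not separate evidence. The values of Elovl6 in I2-E2 wells were 68.2, 65.6 and 68.2 CPM and in I0-E0 wells 67.6, 71.0 and 73.9 CPM, both without overlap with NC. In I0-E2 wells they were 72.3, 74.3 and 63.2 CPM, of which 1 lay above the lowest NC well. In all 4 comparisons, 17 members had a negative log2 fold change, and 14 also in batch 2. No member was higher in all 5. The shares of all genes with these patterns, or with 3 of 4 comparisons below NC, were not computed. These counts are therefore not a result about the members.

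**Figure D2:**
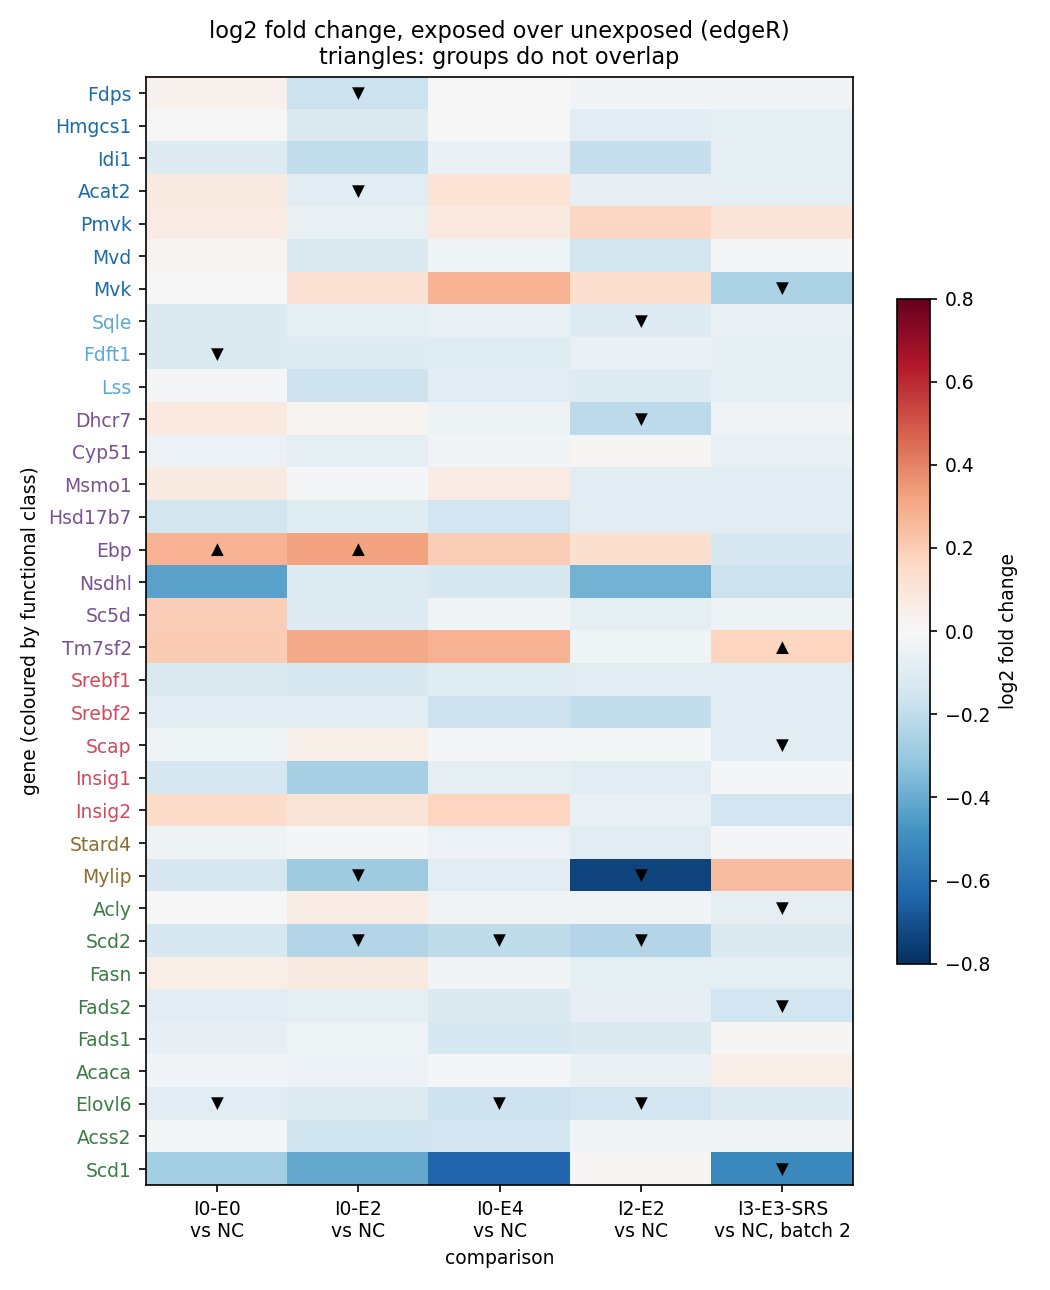
log2 fold change of the 34 members in the 5 comparisons of exposed with unexposed wells (edgeR), coloured from blue for lower to red for higher. Triangles mark members whose exposed and NC libraries did not overlap, pointing down where the exposed were lower. The darkest blue is Mylip in I2-E2 wells at -0.74, and no value passed the adjusted threshold.

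**Figure D3:**
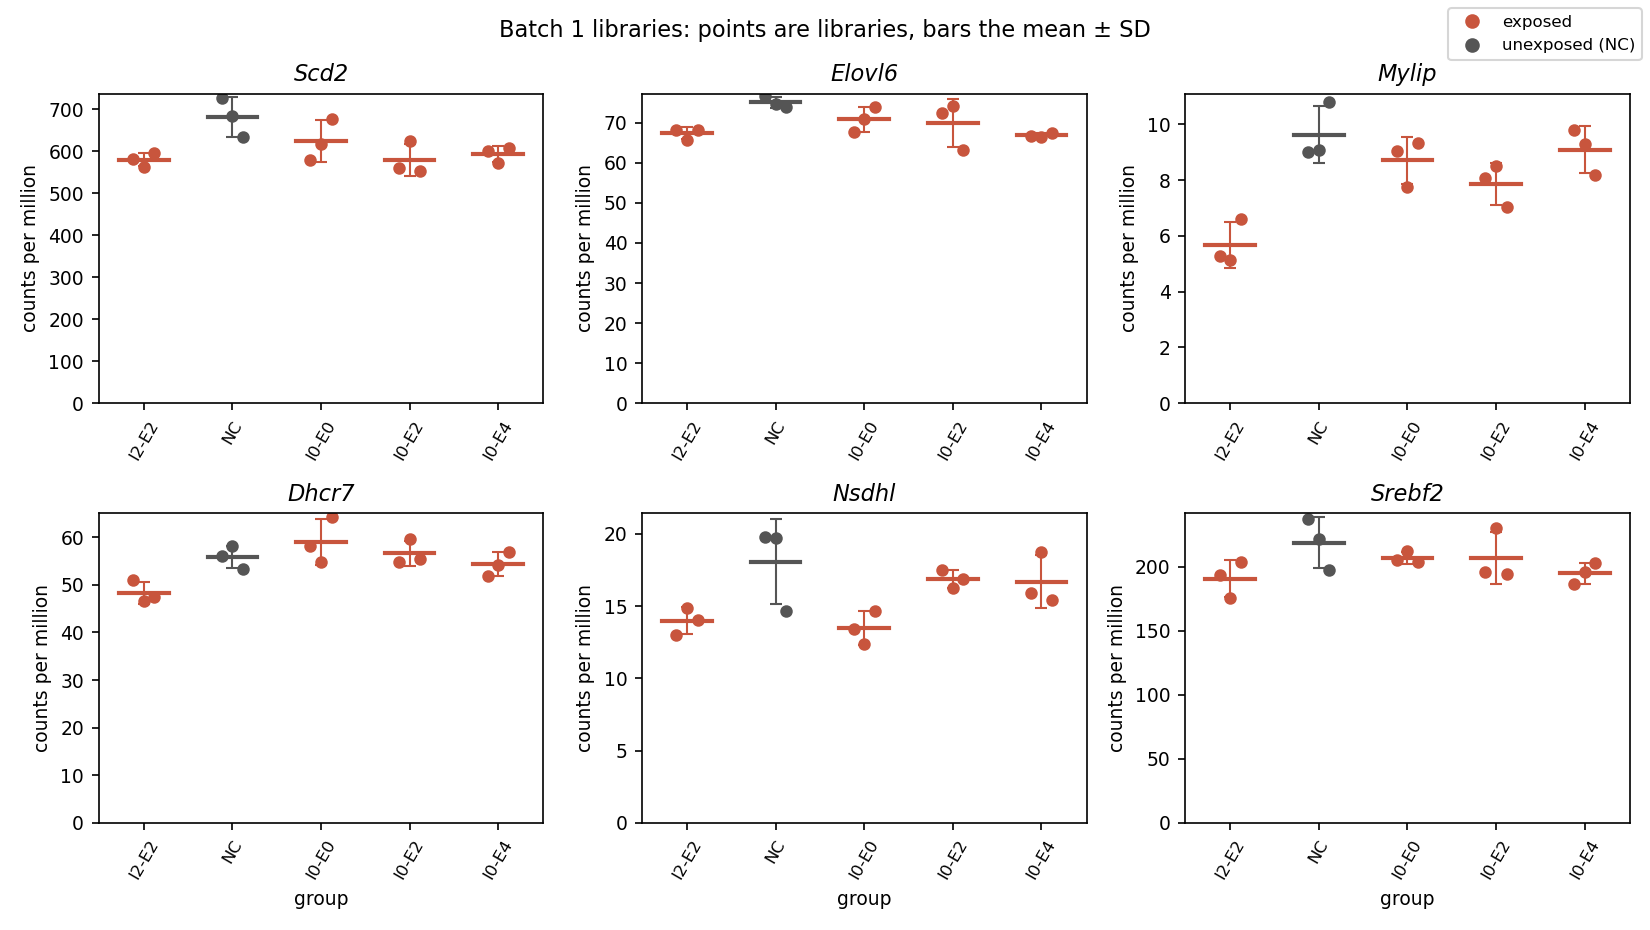
CPM of Scd2, Elovl6, Mylip, Dhcr7, Nsdhl and Srebf2 in the 15 libraries of batch 1 by group, with the mean and SD of each group. Axes start at 0. Mylip stood at 5.1 to 6.6 CPM in I2-E2 wells and 9.0 to 10.8 CPM in NC wells.

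Another 2 comparisons set I2-E2 against other exposed wells and share no NC library, but they share the 3 I2-E2 libraries with each other and with the comparison of I2-E2 with NC, so low values of a gene in them are not separate evidence. Against I0-E2, of equal fluency, 17 members were lower, against 47.6% of genes, and the median log2 fold change was 0.00. At an unadjusted p under 0.05 there were 3 members, against 5.25% of genes (645 genes). Without I2-E2 replicate 3 there were 6 members, but also 1151 genes of the whole table. Below all I0-E2 libraries lay 4 members, Dhcr7, Mylip, Nsdhl and Acly, against 4.96%. Dhcr7 averaged 48.4 ± 2.33 CPM in I2-E2 wells and 56.6 ± 2.58 CPM in I0-E2 wells (log2 fold change -0.23, SE 0.07, 95% interval -0.38 to -0.07, edgeR, adjusted p = 0.945). Mylip averaged 5.68 ± 0.818 and 7.87 ± 0.754 CPM in the same order (adjusted p = 0.945), and Nsdhl 14.0 ± 0.937 and 16.9 ± 0.618 CPM (adjusted p = 0.946, SD, n = 3 each, edgeR). Against I0-E0, of equal dwell time, 22 members were lower, against 49.1% of genes, and the median was -0.05. At an unadjusted p under 0.05 there were 3 members, against 6.12% of genes, and 4 lay below all I0-E0 libraries, Dhcr7, Mylip, Srebf2 and Insig2, against 5.63%. Fdft1 lay above all I0-E0 libraries, with 57.0, 57.3 and 56.5 CPM in I2-E2 wells and 52.7, 55.6 and 55.3 CPM in I0-E0 wells. The share of all genes above them is not given here. Dhcr7 averaged 48.4 CPM in I2-E2 and 59.0 CPM in I0-E0 wells (log2 fold change -0.29, SE 0.07, 95% interval -0.44 to -0.13, edgeR, adjusted p = 0.629). Mylip had a log2 fold change of -0.60 (SE 0.16, 95% interval -0.94 to -0.27, edgeR, adjusted p = 0.629) and Sc5d, the sterol C5 desaturase, of -0.28 (SE 0.13, 95% interval -0.55 to -0.01, edgeR, adjusted p = 0.809).

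In I3-E3-SRS wells, 29 of 34 members were below the NC wells of batch 2, against 51.4% of genes, with a median log2 fold change of -0.08. At an unadjusted p under 0.05 there was 1 member, against 4.02% of genes. Of the whole table, 484 genes had such a p. Without NC replicate 1 there were 4 members (433 genes) and without NC replicate 2 there were 2 (1435 genes). There were 0 without I3-E3-SRS replicate 1 (252 genes) or 2 (325 genes) and 3 without I3-E3-SRS replicate 3 (442 genes). Fads2, the delta-6 desaturase of polyunsaturated fatty acids, had 112.2, 111.4 and 113.4 CPM in I3-E3-SRS wells and 119.1 and 130.2 CPM in NC wells (log2 fold change -0.15, SE 0.06, 95% interval -0.29 to -0.01, edgeR, adjusted p = 1.00). Scd1 had 16.3, 10.9 and 16.2 CPM in I3-E3-SRS wells and 24.7 and 16.9 CPM in NC wells (log2 fold change -0.52, SE 0.23, 95% interval -1.06 to 0.03, edgeR, adjusted p = 1.00). Mvk followed at -0.25 (SE 0.14, 95% interval -0.59 to 0.08, edgeR, adjusted p = 1.00). All exposed libraries were below both NC libraries for 5 members, Fads2, Scd1, Mvk, Acly and Scap, against 9.82% of genes. Tm7sf2 lay above both, with 9.44, 8.51 and 8.14 CPM in I3-E3-SRS wells and 7.69 and 7.73 CPM in NC wells. The share of all genes above both is not given here. The sterol genes of a library lay on the same side of the NC mean in most cases. Relative to the NC mean, the median of the 18 sterol steps was -0.22, -0.16 and 0.19 log2 units in the 3 I3-E3-SRS libraries. In the 2 NC libraries it was -0.13 and 0.13. These 2 values mirror each other by construction, as the mean of the same 2 libraries is the reference, so they are not separate observations. Hmgcs1, the cytosolic HMG-CoA synthase at the start of the mevalonate route, had 214.8, 231.0 and 293.5 CPM in I3-E3-SRS wells and 224.8 and 295.2 CPM in NC wells, so each group held a high and a low library. The median fold change over members was -0.17 without NC replicate 1, 0.04 without NC replicate 2 and 0.01 without I3-E3-SRS replicate 1, so its direction rests on single libraries.

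The regulators did not pass the test in any comparison of exposed wells, and the members with the highest level in each class did not either. Srebf1 had 156.9, 129.3 and 148.5 CPM in I2-E2 wells and 164.7, 147.4 and 149.3 CPM in NC wells of batch 1, and 236.8, 246.1 and 253.7 CPM in I3-E3-SRS wells and 247.7 and 271.7 CPM in NC wells of batch 2. The groups overlapped in both batches. Its log2 fold change was -0.11 in I0-E0, -0.13 in I0-E2, -0.09 in I0-E4, -0.08 in I2-E2 and -0.08 in I3-E3-SRS wells. Srebf2 had 193.4, 175.3 and 203.2 CPM in I2-E2 wells, where 1 well lay above the lowest NC well (log2 fold change -0.20, 95% interval -0.36 to -0.03, edgeR, adjusted p = 0.645). In I3-E3-SRS wells Srebf2 had 362.8, 372.4 and 416.5 CPM, against 388.1 and 430.6 CPM in NC wells, with overlap (log2 fold change -0.09, 95% interval -0.28 to 0.10).

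Scap, the escort of both factors, had 119.2, 123.0 and 133.7 CPM in I2-E2 wells and 133.9, 123.2 and 123.5 CPM in NC wells. Its log2 fold changes lay between -0.09 and 0.05 over the 5 comparisons. In I3-E3-SRS wells it had 158.0, 157.6 and 149.6 CPM and in NC wells 163.1 and 166.3 CPM, without overlap (log2 fold change -0.09, 95% interval -0.22 to 0.05). Insig1, itself an SREBP target, had 73.3, 71.3 and 67.3 CPM in I2-E2 wells, and its log2 fold change was -0.08 (95% interval -0.29 to 0.12). In I3-E3-SRS wells Insig1 had 182.6, 201.2 and 224.4 CPM, against 198.6 and 209.8 CPM in NC wells, so the exposed wells lay on both sides of NC (log2 fold change -0.01, 95% interval -0.22 to 0.20). Insig2, the isoform less tied to SREBP, had 18.0, 13.5 and 17.8 CPM in I2-E2 wells and 17.4, 18.6 and 15.7 CPM in NC wells. Its log2 fold changes were 0.15 in I0-E0, 0.10 in I0-E2, 0.17 in I0-E4, -0.06 in I2-E2 and -0.15 in I3-E3-SRS wells.

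Of the members with the highest level in their class, Acly had 767.0, 677.9 and 777.8 CPM in I2-E2 wells and 794.6, 738.5 and 721.9 CPM in NC wells, with overlap (95% interval of the log2 fold change -0.14 to 0.10). Fdps had 58.4, 63.0 and 63.5 CPM in I0-E2 wells and 72.2, 69.9 and 65.9 CPM in NC wells, without overlap, while its I2-E2 wells, at 68.6, 83.4 and 54.9 CPM, lay on both sides of NC. Sqle had 101.6, 104.5 and 100.6 CPM in I2-E2 wells and 106.2, 110.1 and 113.8 CPM in NC wells, without overlap (log2 fold change -0.11, 95% interval -0.24 to 0.03, edgeR, adjusted p = 0.736). Stard4 had 54.8, 47.5 and 51.3 CPM in I2-E2 wells and 55.6, 58.1 and 49.6 CPM in NC wells, and its intervals included 0 in all 5 comparisons.

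The comparison of the batches was added after the data were seen. A single fit of all 20 libraries compared the 2 unexposed libraries of batch 2 with the 3 of batch 1. Of the 34 members, 28 were higher in batch 2 at an adjusted p under 0.05 (edgeR), against 9.9% of 12823 genes, and 1 was lower, against 7.41%. The median log2 fold change of the members was 0.89, against 0.00 over all genes. In 30 members, all 5 libraries of batch 2 were above all 15 of batch 1, exposed wells included, against 7.17% of genes. Batch, culture, library preparation and sequencing cannot be told apart here.

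All 7 mevalonate genes were higher. Hmgcs1 had 224.9 and 294.5 CPM in the NC wells of batch 2 and 110.0, 107.4 and 97.2 CPM in those of batch 1, a 2.48-fold difference (SE 0.12 on the log2 scale, edgeR, adjusted p = 4.12e-07). Mvd, the mevalonate diphosphate decarboxylase, was 2.79-fold higher, Idi1, the isopentenyl diphosphate isomerase, 2.67-fold, Fdps 2.44-fold, Mvk 2.35-fold, Acat2 1.69-fold and Pmvk, the phosphomevalonate kinase, 1.63-fold. The squalene and lanosterol genes were all higher, Lss, the lanosterol synthase, 2.61-fold, Fdft1 2.39-fold and Sqle 1.98-fold. Of the 8 genes from lanosterol to cholesterol, 6 were higher. Msmo1, the sterol C4 methyl oxidase, had 111.8 and 179.1 CPM in batch 2 and 44.9, 42.3 and 41.2 CPM in batch 1, a 3.43-fold difference (adjusted p = 5.95e-07, edgeR). Nsdhl was 2.47-fold, Cyp51, the lanosterol demethylase, 2.39-fold, Sc5d 1.87-fold, Dhcr7 1.84-fold and Hsd17b7, a sterol ketone reductase, 1.77-fold higher. Tm7sf2, a sterol reductase, at 1.62-fold (adjusted p = 0.0587, edgeR) and Ebp at 1.14-fold (adjusted p = 0.418, edgeR) did not pass.

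Of the regulators, 4 of 5 were higher. Insig1 had 198.6 and 209.3 CPM in the NC wells of batch 2 and 77.1, 72.6 and 74.8 CPM in those of batch 1, 2.73-fold (adjusted p = 2.37e-08, edgeR). Srebf2 was 1.87-fold, Srebf1 1.69-fold and Scap 1.30-fold higher. Insig2 had 18.0 and 21.4 CPM in batch 2 and 17.4, 18.6 and 15.7 CPM in batch 1, and the 95% interval of its log2 fold change was -0.11 to 0.51. Stard4 was 1.82-fold higher. Mylip was the member that was lower, with 6.57 and 6.35 CPM in batch 2 and 9.02, 9.06 and 10.8 CPM in batch 1, 0.672-fold (adjusted p = 0.0343, edgeR), and its batches overlapped once exposed wells were included. Its call was lost without any 1 of NC replicate 1 or 2 of batch 2 or NC replicate 2 or 3 of batch 1.

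Of the 9 fatty acid genes, 7 were higher, with smaller differences in most. Scd1 was the exception: it had 24.8 and 16.9 CPM in batch 2 and 5.17, 4.95 and 3.24 CPM in batch 1, 4.57-fold (95% interval 1.52 to 2.86 on the log2 scale, adjusted p = 9.18e-05, edgeR). Scd2 was 2.03-fold and Fads2 1.96-fold higher, Acss2, the cytosolic acetyl-CoA synthetase, 1.43-fold, Acly 1.38-fold, Fasn 1.29-fold and Elovl6 1.26-fold. Fads1, the delta-5 desaturase, at 1.18-fold (adjusted p = 0.0548, edgeR) and Acaca at 1.04-fold (adjusted p = 0.739, edgeR) did not pass. By class, the median log2 fold change was 1.29 for the mevalonate genes, 1.25 for squalene and lanosterol, 0.89 for lanosterol to cholesterol, 0.76 for the regulators and 0.46 for the fatty acid genes. Left-out libraries gave 24 (without NC replicate 2 of batch 2) to 29 higher members and medians of 0.78 to 0.99. The share of all genes moved as well, and without NC replicate 1 of batch 2 it was 4.64% higher and 3.75% lower, with 28 members higher and 0 lower.

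**Figure D4:**
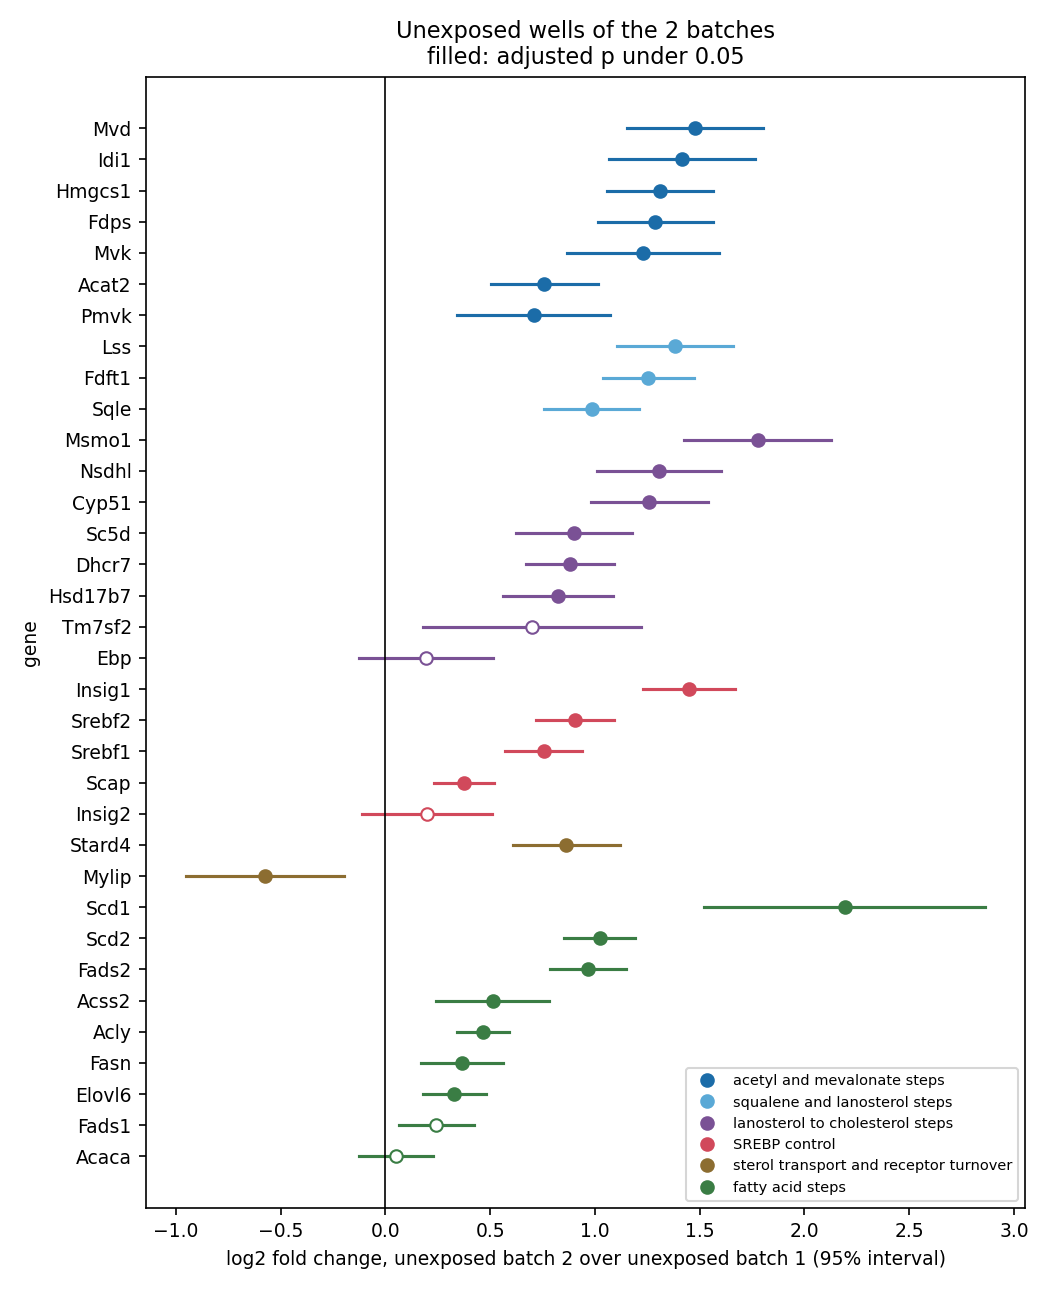
log2 fold change of the 34 members between unexposed wells, batch 2 over batch 1, with 95% intervals, coloured by class. Filled points passed an adjusted p of 0.05. The mevalonate genes lie between 0.71 and 1.48, Scd1 is the highest at 2.19, and Mylip is the one filled point below 0.

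**Figure D5:**
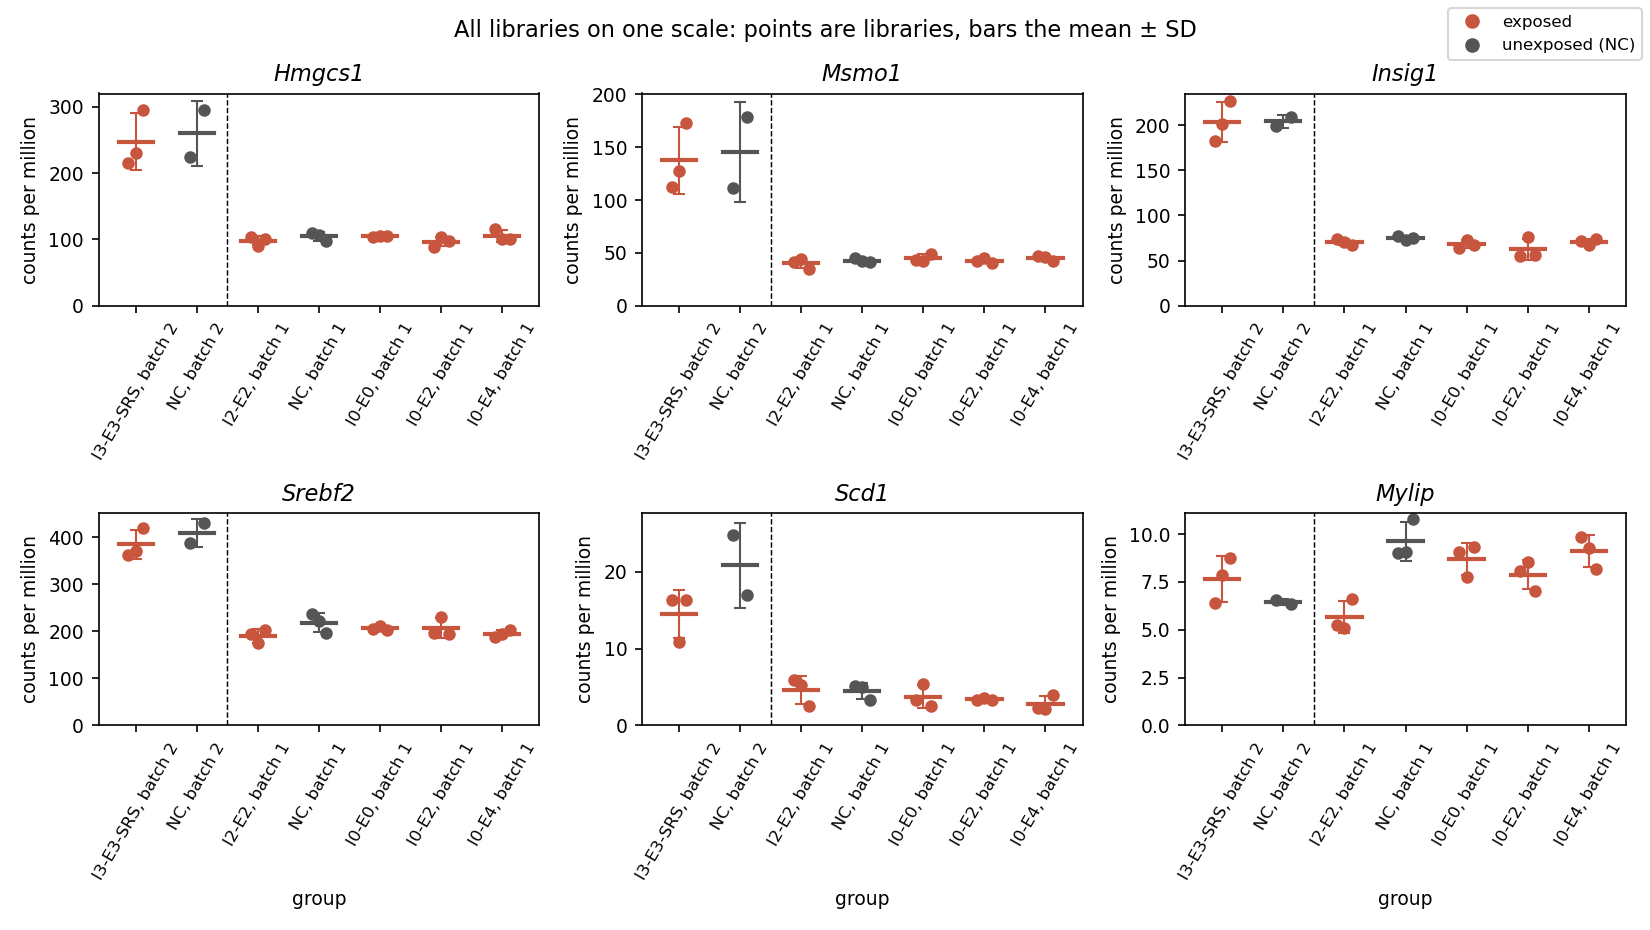
CPM of 6 members in all 20 libraries on one scale, with batch 2 left of the dashed line and batch 1 right of it, and the mean and SD of each group. For Hmgcs1, Msmo1, Insig1, Srebf2 and Scd1 every batch 2 library is above every batch 1 library, in exposed and NC wells alike, while Mylip overlaps.

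Genes of 5 related lists were counted in the same comparison of the batches, against the 9.9% of all genes that were higher and the 7.41% that were lower. Of the 11 tested genes of SREBP processing and turnover, 1 was higher in batch 2, as was 1 of 11 of the isoprenoid branch. Of sterol efflux, storage and trafficking, 6 of 15 tested were higher and 1 lower, of other lipogenic genes 6 of 22 higher and 2 lower, and of fatty acid oxidation 3 of 17 higher and 2 lower. In the comparisons of exposed with unexposed wells, 0 genes of these lists passed an adjusted p of 0.05 (edgeR). In 4 of these lists, the smallest unadjusted p belonged to Slc25a20, the carnitine carrier, and Fbxw7, a ubiquitin ligase of SREBP, both in the fluency trend (slopes of -0.03, edgeR, adjusted p = 0.442 for both), Tecr, an enzyme of fatty acid elongation, in I0-E0 wells (-0.18, edgeR, adjusted p = 1.00) and Fnta, a subunit of protein prenyltransferases, in I0-E0 wells (0.13, edgeR, adjusted p = 1.00).

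Within batch 1, CPM of the 34 members, after group means were taken away, had a median Pearson r of 0.12 over 561 pairs of genes and 15 libraries. It was above 0.5 in 76 pairs and under -0.5 in 24. The highest was 0.88, for Acly with Fasn and for Srebf1 with Fads2, and the lowest -0.86, for Scd1 with Mylip. These are descriptions over libraries that all genes share, with no test. The shares over pairs of all genes were not computed, so the counts of pairs are not a result about the members. Acly and Fasn each followed library depth within groups (r 0.75 and 0.90), and Scd1 and Mylip had the lowest TPM of the members. Whether depth or low counts shaped these pairs was not tested.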

How the data were processed

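The authors quantified each library with salmon, per the submitters' processing notes (version and transcript set not given in the sources used here), and deposited estimated counts and TPM for each transcript of each of 20 libraries. Transcripts were matched by identifier to GENCODE mouse release 21 (GRCm38, 98.6% matched, leaving out 0.664 to 0.748% of counts), and estimated counts were summed to 34083 genes and rounded. The 15 libraries of batch 1 and the 5 of batch 2 were fitted apart in edgeR 4.0.16 (filterByExpr with a minimum count of 10, TMM factors, quasi-likelihood test), with p-values adjusted by the Benjamini-Hochberg method over all genes. TPM are those the authors deposited, summed per gene. Intervals are 95% intervals of the fit. CPM are scaled per batch except in the comparison of the batches, where 1 fit of 20 libraries gave 13 residual degrees of freedom. Alternatives were DESeq2 1.42.0, limma 3.58.1, other scalings, no filter, TPM, a replicate block, an adjustment for length and left-out libraries. Named genes were all members, with full values for the 3 with the smallest unadjusted p per comparison, members on 1 side of NC in at least 3 comparisons, the regulators and the highest of each class. Members and lists were chosen with earlier results of these data known. Code was tested on simulated data. R 4.3.3 and Python 3.11.15 were used. Some genes of the related and marker lists are not reported here by name.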

Additional observations from a re-analysis of the deposited data

How the results depend on the processing

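In the comparisons of exposed wells, no member's call changed under any alternative run, except in I2-E2 wells without the filter on low counts, where 2 members passed: Scd2 at -0.25 and Mylip at -0.76. On log2 TPM, the I0-E4 median was -0.11 with either pseudocount, 1 or 0.1. In I3-E3-SRS wells, where 1 NC library has 33.0% of its TPM in short transcripts, the median on TPM was 0.37 and 0.39, with Fads2 at 0.41 and 0.41, Scd1 at 0.036 and 0.046, and Mvk at 0.10 and 0.11 with these pseudocounts; the cause was not tested. Without single libraries the median over members ranged from -0.14 to -0.046 for I0-E2, from -0.06 to -0.01 for I0-E0, from -0.07 to -0.03 for I0-E4, from -0.12 to -0.06 for I2-E2, from -0.17 to 0.04 for I3-E3-SRS, from -0.07 to -0.03 for I2-E2 against I0-E0 and from -0.05 to 0.04 for I2-E2 against I0-E2, where it was above 0 without I0-E2 replicate 2. Of 740 alternative values, 726 kept their direction and their side of the threshold or, where there was no test, moved by less than the replicate spread. For the medians, this spread was the SD of the NC library medians, and a change of sign within it counted as kept. The I3-E3-SRS median, -0.08 in the main fit and 0.04 without NC replicate 2, was such a case, so the count of 726 is a lenient measure. The replicate numbers do not pair the libraries (30 same-numbered pairs, correlations -0.23 to 0.21). With a replicate block no member passed. The medians were then -0.03, -0.08, -0.046, -0.08 and -0.15 in the order of the groups I0-E0, I0-E2 and so on to I3-E3-SRS. In I3-E3-SRS wells the block gave 5 members with an unadjusted p under 0.05, with 445 genes of the whole table. Without the block there was 1 member, with 484 genes. Low members such as Mylip and Scd1 rest on few counts (Scd1 12 to 203 per library), and batch 2 has 2 NC libraries.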

Other observations

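In batch 1, Fasn CPM followed the depth of the library. Relations to depth were computed for the 34 members only, so the share of all genes that followed depth as closely is not known. Over the 15 libraries the Pearson r between log2 Fasn CPM and log2 total count was 0.88 (permutation p = 9e-05, 0.00306 after Benjamini-Hochberg adjustment over 34 members), Spearman's rho was 0.81 (permutation p = 0.00039, adjusted 0.0133), and r was 0.86 without the 2 libraries farthest from the median depth and 0.90 after group means were taken away. Acly (r 0.78, adjusted permutation p 0.0085, rho 0.70 with adjusted p 0.0559) and Fads1 (r 0.76, adjusted permutation p 0.0085, rho 0.70 with adjusted p 0.0559) had the next strongest relations. Without the 2 farthest libraries these were 0.56 and 0.59, and within groups 0.75 and 0.74. The Fasn values lay between 778.4 and 1059.2 CPM, and the lowest was in I2-E2 replicate 2, a library of 5808532 counts.

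The ratio of Scd2 to Scd1 CPM was 51.8 to 111.2 in the 5 libraries of batch 2 and 97.6 to 272.1 in the 15 of batch 1.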
